A study of Mus musculus with 2 samples.

Results

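The genes described here encode the cytosolic factors that carry the ribosome through initiation, elongation and termination. They were chosen by symbol, as genes named Eif or Eef followed by a digit, together with Etf1, Gspt1, Pabpc1 and Abce1, and without the eIF2 kinases (Eif2ak). Of 18944 genes listed in both libraries 65 met this rule, and 61 of these reached 1 FPKM (reads relative to transcript length and to the mapped total of the library) in at least 1 library. RNA came from cultures labelled intestinal stem cells of mice aged 2 months that carried Lgr5GFP-CreERT2, an allele in which the Lgr5 gene drives GFP and a tamoxifen-inducible Cre. One group was labelled Lgr5GFP-CreERT2 WT and the other Lgr5GFP-CreERT2 Stat6 KO, with 1 library of each. STAT6 is the transcription factor activated by the cytokines IL-4 and IL-13. A lentivirus with CRISPR/Cas and Stat6 guide RNAs and a screen for deficient cells are described in the protocol under both samples, and neither a control virus for WT nor the number of KO clones is stated there. Medium and supplements, with EGF, Rspo1 and the kinase inhibitor Y27632, were the same for both.

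Translation initiation starts when eIF2 bound to GTP brings the initiator tRNA to the small ribosomal subunit, with eIF1, eIF1A, eIF3 and eIF5 in the same assembly. The cap-binding complex eIF4F, built from the cap-binding protein eIF4E, the scaffold eIF4G and the helicase eIF4A, recruits that assembly to the mRNA, and eIF2B then exchanges GDP for GTP on eIF2 so that it can be used again. During elongation eEF1A delivers tRNAs, the eEF1B subunits recharge eEF1A with GTP, and eEF2 moves the ribosome along. Crypt cells divide quickly and make much protein, and many translation factor genes are known to follow growth signals through mTORC1 and MYC.

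With 1 library per genotype, no difference given here has a replicate check, and none was tested. Depth estimated from the smallest steps of the values was 19900000 reads for WT and 20000000 for KO. This is below the read number stated in the labels of both libraries, which the search did not reach, and the estimate may be too low. At the estimated depth the measured factors rest on a median of about 3902 reads in WT. Stat6 was at 41.3 FPKM in WT and 44.2 in KO, a level that does not check the genotype, since a small CRISPR deletion need not lower a transcript. The stem cell markers Lgr5, Olfm4, Ascl2 and Smoc2 summed to 27.9 FPKM in WT and 23.8 in KO, and 0 of the 4 differed 2-fold; Lgr5 itself was low at 1.79 and 1.88 FPKM. Enterocyte markers (Fabp1, Alpi, Lct and Apoa1) summed to 2433 and 8796 FPKM, and 4 of 4 were at least 2-fold higher in KO. Of 25 markers fixed for all cell types, 23 reached 1 FPKM, with 5 at least 2-fold higher and 2 at least 2-fold lower in KO, and the muscle factor Myod1 was listed at 0 in both. White blood cell markers (Ptprc and Cd68) summed to 19.2 and 6.65 FPKM, goblet markers (Muc2 and Clca1) to 59.3 and 140.9 FPKM, and enteroendocrine markers (Chga and Tph1) to 137.7 and 73.8 FPKM. With 1 FPKM added to each value, as below, only 1 of 2 markers in each of these pairs was past 2-fold. They were Cd68 (17.7 and 6.08 FPKM), Clca1 (33.5 and 97.8 FPKM) and Tph1 (62.7 and 15.2 FPKM). Counted in the same way, which understates the fold of low genes, the other marker pairs or groups had 0 markers past 2-fold. Their sums in WT and KO were 6.46 and 3.21 FPKM for endothelium, and 3.46 and 1.39 FPKM for fibroblasts. Those of neuron or muscle markers were 17.4 and 11.3 FPKM, of Paneth markers 455 and 592 FPKM, and of tuft markers 3.01 and 3.19 FPKM. The part of these differences in cell makeup in the values below was not tested. In such bulk RNA, fewer cells of a type and less RNA per cell cannot be told apart.

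As a list the translation factors read slightly lower in KO, by about as much as genes at large. Differences are given as the log2 ratio, log2((KO FPKM + 1)/(WT FPKM + 1)), which is negative where KO is lower and understates the fold of low genes. Over the 61 measured factors the median log2 ratio was -0.21, against -0.18 over all 12079 genes measured. The lower and upper quartiles of the factors were -0.40 and -0.09, and those of all genes -0.40 and 0.06. Below 0 were 50 of 61 factors, where 69.6% of all genes were, and 34 of 61 were below the all-gene median, where 50% were. Only Eif2b3 was at least 2-fold lower (1 of 61, against 2.18% of all genes), and 0 of 61 were at least 2-fold higher (2.44% of all genes). At 1.5-fold, 2 of 61 were lower, Eif2b3 and Eef1d, against 11.4% of all genes, and 0 were higher, against 5.7%; with a pseudocount of 0.1 the lower count was 3, with Eif3d. The 2-fold call of Eif2b3 was lost with a trimmed mean of log ratios (-0.84), with the all-gene median set to 0 (-0.88) and with a pseudocount of 5 (-0.85). Because most genes read slightly lower in KO, each complex is also given relative to the all-gene median. Across 4 scalings of the libraries (as deposited, a trimmed mean of log ratios, the median set to 0, and a total without ribosomal and very abundant genes) 30 of 61 factors were lower in KO under every scaling, where 45.8% of all genes were, 11 were higher under every scaling, where 30.3% were, and 20 did not keep 1 sign. The 11 include Eef1a2, which reached 1 FPKM only in the KO library, and Eif4g2, which was at 102 FPKM in both. The other scalings all raise KO relative to WT. Being higher under every scaling is therefore the same as being above 0 as deposited, and adds no check. Being lower under every scaling rests on the scalings that raise KO most, and 30 of 61 factors were below 0 with the trimmed mean alone. The counts under every scaling given for single complexes are to be read against the same shares of all genes.

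**Figure D1:**
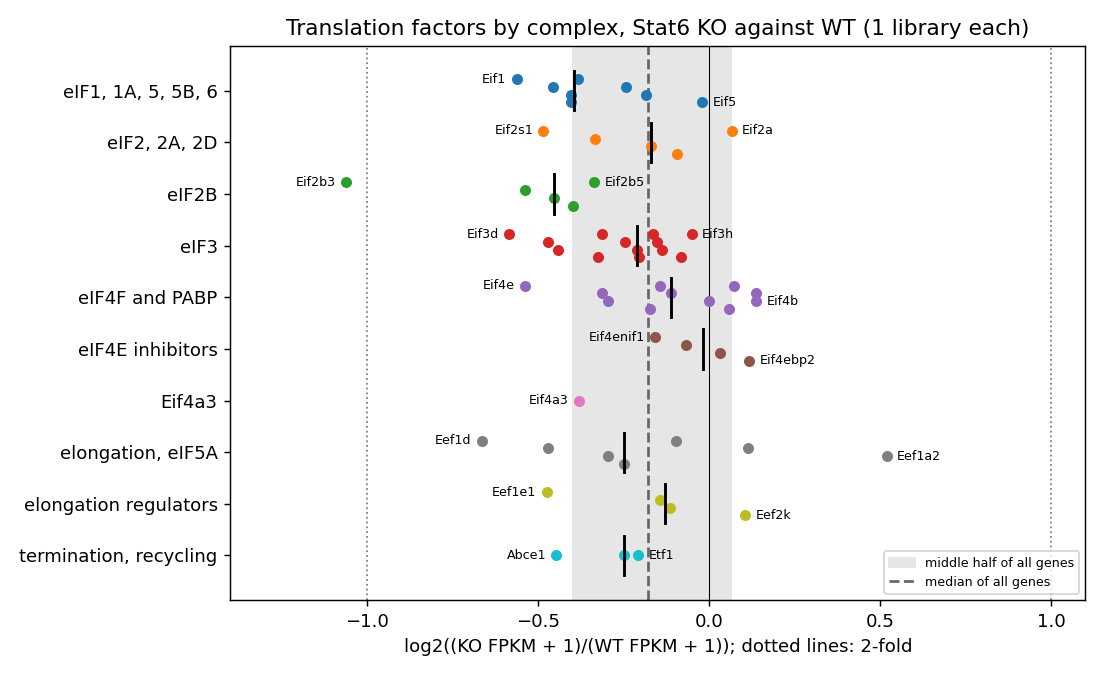
Log2 ratio of KO to WT (x axis) for the 61 measured translation factors, 1 point per gene, in rows by complex; the black bar is the median of a complex, the dashed line the all-gene median (-0.18) and the grey band the range between the quartiles of all genes. The eIF2B row lies left of the dashed line with Eif2b3 at -1.06, whereas the row of eIF4E inhibitors lies to its right.

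FPKM is a measure per length, so the levels of different factors can be set side by side. The 65 genes together made up 2.37% of the FPKM total in WT and 2.14% in KO. Eef1a1, which delivers aminoacyl-tRNAs, was the most abundant at 3966 FPKM in WT and 3711 in KO, and alone held 33.1% and 34.9% of the sum over all members. Elongation factors with eIF5A made up 56.8% of that sum in WT and 58.4% in KO, eIF3 14.8% and 14.1%, and eIF2B 1.38% and 1.09%. The median factor was at 94.0 FPKM in WT and 73.3 in KO, where the median of all measured genes was 11.8 and 10.4 FPKM. Tissue-restricted forms and duplicate copies were the lowest members. Eif4e1b, the oocyte form of eIF4E, was at 0.14 and 0.12 FPKM, Eif5a2, a paralogue of Eif5a, at 0.49 and 0.35 FPKM, and Eif3j2, a near-identical copy of Eif3j1, at 0.86 and 0.23 FPKM. Eif2s3y, the Y-linked form of the eIF2 gamma subunit, was listed at 0 in both, and its X-linked partner Eif2s3x was at 133 and 105 FPKM. These 4 genes did not reach the minimum level, and no ratio of them is counted.

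**Figure D2:**
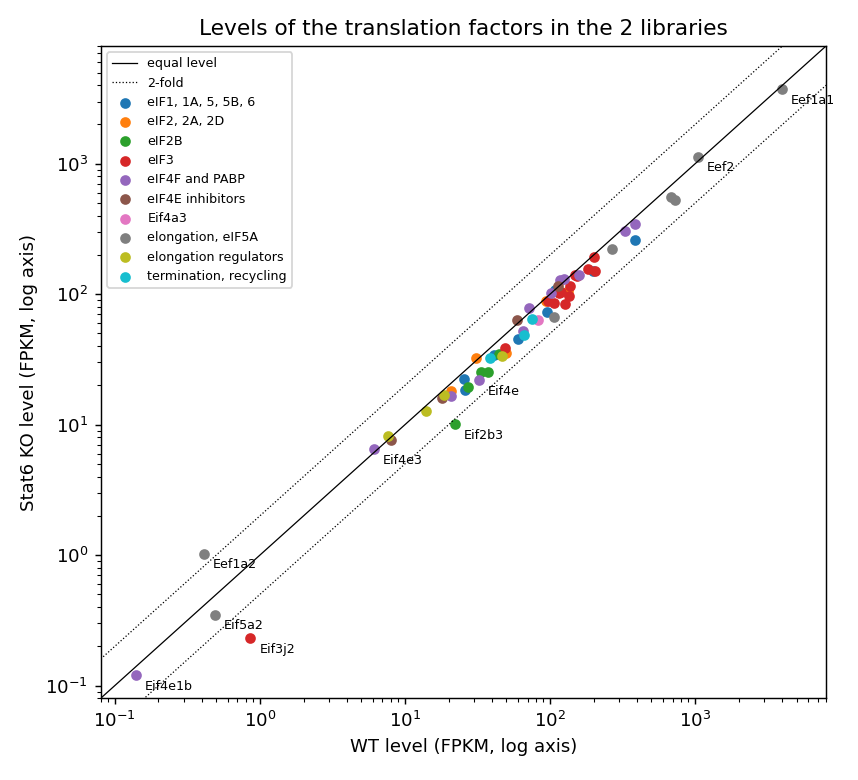
WT level (x axis, FPKM) against KO level (y axis, FPKM), both on log axes, for the translation factors above 0, coloured by complex; the solid line marks equal levels and the dotted lines 2-fold. Most points lie on or just under the solid line from 6.11 to 3966 FPKM in WT, with Eif2b3 just beyond the lower dotted line and Eef1a2 and Eif3j2 outside the dotted lines at the bottom.

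To set sequence beside these values, RefSeq windows of 250 bases before and 50 after the annotated start (build GRCm38.p6, matched by Entrez number) were searched for 48 of the 65 genes, with 62 starts. The files were made on mm9, per the submitters' processing notes, so these coordinates belong to the sequences and not to the FPKM values. A gene counts as holding a sequence when any of its windows does. The following set is shown because the KO label names STAT6, and its best known binding sequence is TTC and GAA with any 4 bases between them, the same on both strands. It occurred in 4 of 48 members (8.33%), against 6.95% of all 32851 windows in the table and 6.29% of the measured genes that have one. Each 30-base stretch is written 5′ to 3′ on the gene's strand with the match in capitals.
Eef2, chr10:81176381-81176410, plus strand: aactgtgTTCTGAGGAAtctatgtttaaaa
Eif4a3, chr11:119299995-119300024, minus strand: gcagttgtctTTCTGCGGAAtccggatcat
Eif4b, chr15:102073571-102073600, plus strand: gtccactctgTTCCATAGAAtcagcaagtg
Eif4g3, chr4:137993275-137993304, plus strand: tcaccgatctTTCCCGAGAAagagtgtcag
The log2 ratios of these 4 genes went both ways, 0.11 for Eef2, -0.38 for Eif4a3, 0.14 for Eif4b and -0.31 for Eif4g3. A match is a description of letters, not of binding. Of 7 other sequences searched on both strands, the related TTC and GAA with 3 bases between them was in 5 of 48 members (10.4%), against 8.3% of all windows and 8.31% of the measured genes that have one. TGACGTCA was in 2 members (4.17%, against 1.79% and 3.72%), TATAAA in 5 (10.4%, against 13.6% and 9.14%), CCAAT in 15 (31.2%, against 37.4% and 43.4%) and GGGCGG in 37 (77.1%, against 35.7% and 69%). Matches of different sequences may overlap and were counted separately, and the remaining 2 sequences are shown with eIF2B and the cap-binding group.

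The exchange factor eIF2B had the lowest median of the complexes, with 5 of 5 subunits lower in KO under every scaling. Its subunits had a median of -0.27 relative to all genes. Eif2b3 (Entrez gene 108067), the gamma subunit, was at 22.1 FPKM in WT and 10.1 in KO, a log2 ratio of -1.06. Eif2b1, the regulatory alpha subunit that senses phosphorylated eIF2, was at 37.4 and 25.5 FPKM (-0.54). The regulatory delta subunit Eif2b4 was at 27.1 and 19.6 FPKM (-0.45). Eif2b2, the beta subunit, was at 33.6 and 25.3 FPKM (-0.40), and Eif2b5, the catalytic epsilon subunit, at 44.5 and 35.05 FPKM (-0.34). All were therefore lower in KO, and the order of their levels, with Eif2b5 first and Eif2b3 last, was the same in both libraries. At the estimated depth, about 1151 reads in WT and 527 in KO stood behind Eif2b3. They give a 95% exact binomial interval of -1.29 to -0.98 for its log2 ratio without a pseudocount. That interval does not overlap those of the other subunits. Such intervals cover counting error only, not the spread between cultures. Within a library, where scaling plays no part, Eif2b3 stood at 0.619 of the mean of the other subunits in WT and at 0.382 in KO.

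The next set shows CCGGAAGT, a binding sequence of ETS family factors, in 2 genes of eIF2B. Read on both strands, it occurred in 8 of 48 members (16.7%), against 3.89% of all windows and 9.49% of the measured genes that have one.
Eif2b2, chr12:85219486-85219515, plus strand: cctctctcggcCCGGAAGTgaaacagtgct
Eif2b4, chr5:31193120-31193149, minus strand: cccagtgcacgCCGGAAGTtgtagtccgct
The 7 measured members with it had log2 ratios that ran from -0.58 (Eif3d) to -0.25, with a median of -0.30. Measured members without it, among them Eif2b1 (-0.54) and Eif2b5 (-0.34), had a median of -0.18. Over all measured genes those medians were -0.23 with and -0.17 without the sequence, a difference of the same sign. Eif2b3 and Eef1d were among the genes whose windows were not used here.

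The eIF2 heterotrimer, on which eIF2B acts, had subunits on both sides of the all-gene median. Relative to all genes Eif2s1 stood at -0.31, Eif2s3x at -0.15 and Eif2s2 at 0.09, where the eIF2B median was -0.27. Eif2s1, the alpha subunit whose phosphorylation blocks eIF2B, was at 49.6 FPKM in WT and 35.1 in KO (-0.49). The beta subunit Eif2s2 was at 94.0 and 88.0 FPKM (-0.09), and the gamma subunit Eif2s3x had a log2 ratio of -0.33. Eif2a and Eif2d, which can bring initiator tRNA to the ribosome without eIF2, were at 30.7 and 32.2 FPKM (0.07) and at 20.7 and 18.3 FPKM (-0.17). With both of them included, the eIF2 group had a median of 0.01 relative to all genes. The mean eIF2B subunit stood at 0.357 of the mean eIF2 subunit in WT and at 0.303 in KO.

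Factors of start codon choice and subunit joining had the next lowest median, -0.21 relative to all genes, with 7 of 8 below the all-gene median and 6 of 8 lower under every scaling. Eif1, which guards start codon selection, was at 387 FPKM in WT and 262 in KO (-0.56), and its copy Eif1b at 25.9 and 18.6 FPKM (-0.46). Eif1a and Eif1ax, near-identical genes for the scanning factor eIF1A, had log2 ratios of -0.40 and -0.38. Eif6, which keeps free large subunits apart from small ones, was at 199 and 150.2 FPKM (-0.40). At the other end Eif5, the GTPase activator of eIF2, was at 109 and 107 FPKM (-0.02). Eif5b, the GTPase of subunit joining, had a log2 ratio of -0.18, which is the all-gene median, and Eif1ad, a protein with an eIF1A domain, one of -0.24. Reads of Eif1, Eif1b, Eif1a and Eif1ax are divided between close copies by estimation, so single values are uncertain.

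In eIF3, the large scaffold that binds the small subunit, all 13 measured subunits were below 0 (from Eif3d at -0.58 to Eif3h at -0.05), with a median of -0.03 relative to all genes, and 6 of 13 stayed below 0 under every scaling, near the 45.8% of all genes. Values within eIF3 are given by place in the complex. The 8 subunits a, c, e, f, h, k, l and m form the structural octamer, and this division was applied after the values had been seen. The octamer had a median of -0.16, and 5 of 8 lay above the all-gene median. Its extremes were Eif3m (106 and 85.5 FPKM, -0.31) and Eif3h (201 and 194 FPKM, -0.05), and Eif3a, the largest subunit, was at 97.4 and 88.5 FPKM (-0.14). Of the 5 subunits outside it (b, d, g, i and j), 5 lay below the all-gene median, at a group median of -0.44. Eif3d, which can itself bind the cap of some mRNAs, was at 126.9 FPKM in WT and 84.3 in KO (-0.58), which is just short of 1.5-fold with the pseudocount of 1 and just past it (-0.59) with one of 0.1. Eif3g was at 134 and 96.5 FPKM (-0.47) and Eif3i, its partner in the module at the scanning channel, at 205 and 151 FPKM (-0.44). Eif3b, the scaffold of that module, was at 119 and 103 FPKM (-0.20), closer to the octamer than to its partners. Within a library the mean octamer subunit stood at 1.12 times the mean of the others in WT and at 1.35 times in KO.

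**Figure D3:**
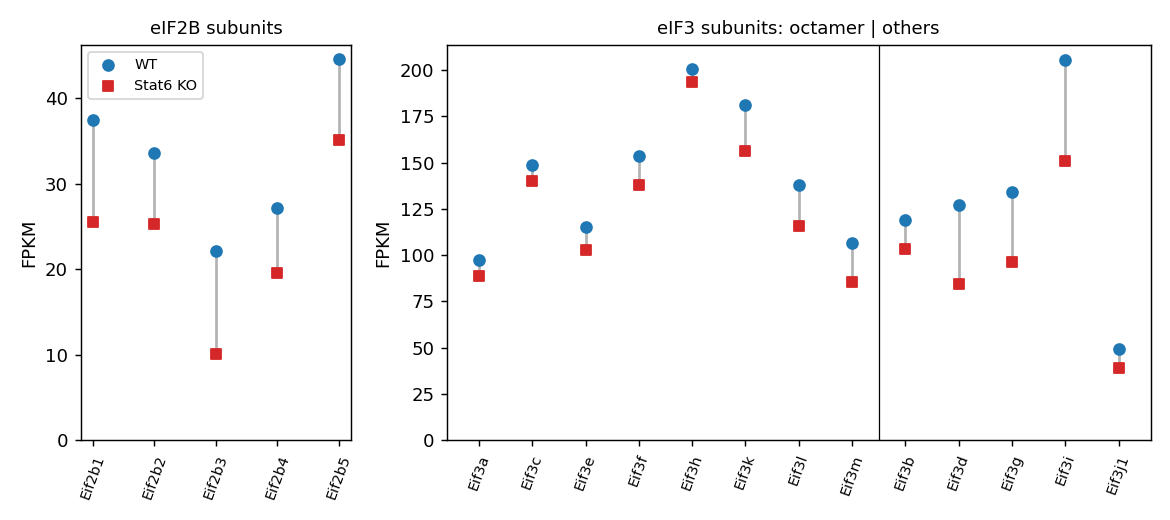
FPKM (y axis, from 0) of the 5 eIF2B subunits on the left and of 13 eIF3 subunits on the right, with a circle for the WT library and a square for the Stat6 KO library. Every square lies below its circle; the gap is widest in proportion for Eif2b3, and in eIF3 it is wider for Eif3d, Eif3g and Eif3i than for Eif3c and Eif3h.

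The cap-binding group was split, and its cap-binding subunit stood apart from its scaffold and helicase. Eif4e, which binds the mRNA cap, was at 32.3 FPKM in WT and 21.9 in KO (-0.54). The main scaffold Eif4g1 was at 125 and 131 FPKM (0.06), and Eif4g3, its paralogue, at 20.8 and 16.6 FPKM (-0.31). The helicase gene Eif4a1 was at 384 and 348 FPKM (-0.14), and its paralogue Eif4a2 at 71.8 and 79.0 FPKM (0.14). Eif4b, a cofactor of the helicase, had the highest log2 ratio of the group (116 and 128 FPKM, 0.14). Eif4g2, a scaffold that lacks the eIF4E site, was at 102 FPKM in both. Pabpc1, which binds the poly(A) tail and joins it to eIF4G, was at 331 and 306 FPKM (-0.11). Of 11 measured members 8 lay above the all-gene median, and 3 were lower and 5 higher under every scaling. The 5 include Eif4g2 and Eif4e3, whose counting intervals at the estimated depth held 0 (-0.04 to 0.04 and -0.15 to 0.32). Those of Eif4g1, Eif4a2 and Eif4b lay above 0. Eif4h, another cofactor of the helicase, was at 159 and 141 FPKM (-0.17). Of the cap-binding homologues, Eif4e2 was at 64.6 and 52.5 FPKM (-0.30), and Eif4e3 at 6.11 and 6.48 FPKM (0.07). Eif4a3, a close relative of Eif4a1 that serves the exon junction complex rather than initiation, was at 83.2 and 63.7 FPKM (-0.38).

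The next set shows the E-box CACGTG, the sequence that MYC binds, in genes of the cap-binding complex and in Eif4h, a cofactor of its helicase. It is its own reverse complement, and it was found in 12 of 48 members (25%), against 7.15% of all windows and 11.9% of the measured genes that have one.
Eif4e, chr3:138527192-138527221, plus strand: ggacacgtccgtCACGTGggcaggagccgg
Eif4g1, chr16:20672661-20672690, plus strand: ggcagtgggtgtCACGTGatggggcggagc
Eif4a1, chr11:69672595-69672624, minus strand: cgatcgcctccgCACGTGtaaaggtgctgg
Eif4h, chr5:134639488-134639517, minus strand: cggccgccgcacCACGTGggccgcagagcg
The same 6 letters thus stood before Eif4e, at -0.54, and before Eif4g1, at 0.06. Eif4e held another match before its start, and Eif4g1 another just after its start, neither of them shown. Over the 11 measured members with an E-box the log2 ratios ran from -0.54 to 0.11 with a median of -0.15, and the median of measured members without one was -0.25. Over all measured genes that have a window both medians were -0.18.

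Genes for proteins that hold eIF4E back were at nearly equal levels in both libraries as deposited. Eif4ebp1, the best known of the 4E-BPs that mTORC1 switches off, was at 114 FPKM in WT and 116 in KO (0.03). Eif4ebp2 was at 58.8 and 63.8 FPKM (0.12), Eif4ebp3 at 7.98 and 7.57 FPKM (-0.07), and Eif4enif1, which carries eIF4E to the nucleus, at 18.0 and 16.0 FPKM (-0.16). Although 4 of 4 were above the all-gene median, only Eif4ebp1 and Eif4ebp2 were higher in KO under every scaling. At the estimated depth the counting interval of Eif4ebp1 held 0 (-0.03 to 0.09), and that of Eif4ebp2 did not (0.02 to 0.22). The summed level of the 3 Eif4ebp genes was 5.58 times that of Eif4e in WT and 8.55 times in KO, and Eif4g1 stood at 3.88 and 5.96 times Eif4e. Both ratios rest on the 1 value of Eif4e in each library.

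In the elongation machinery the exchange subunits had lower log2 ratios than the factors they serve, and 4 of 7 measured genes were lower under every scaling. Of the 2 that were higher under every scaling, Eef2 and Eef1a2, the latter met the minimum level only through the KO library; without it the median of the group was -0.27 in place of -0.25. Eef2, the translocase, was at 1046 FPKM in WT and 1132 in KO (0.11), and Eef1a1 had a log2 ratio of -0.10. Eef1d, the delta subunit of the eEF1B exchange complex, was at 106 and 66.4 FPKM (-0.66). Its partner Eef1g, the gamma subunit, was at 731 and 526 FPKM (-0.47), whereas Eef1b2, the other exchange subunit, was at 266 and 223 FPKM (-0.25). The level of Eef1a1 was thus 37.5 times that of Eef1d in WT and 55.9 times in KO, and 5.43 and 7.05 times that of Eef1g. Eif5a, which carries the amino acid hypusine and helps the ribosome through difficult peptide bonds, was at 681 and 555 FPKM (-0.29). Eef1a2, the muscle and neuron form of eEF1A, was at 0.41 FPKM in WT and 1.02 in KO (0.52), about 17 and 42 reads at the estimated depth. It reached the minimum level through the KO library alone, and its close copy Eef1a1 is far more abundant, so its ratio is uncertain. Among regulators, Eef2k, the kinase that inhibits eEF2, was at 7.59 and 8.24 FPKM (0.11), and Eef1e1, a subunit of the multi-synthetase complex, at 46.8 and 33.4 FPKM (-0.48). The methyltransferase genes Eef1akmt1 and Eef2kmt had log2 ratios of -0.14 and -0.12.

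Release and recycling factors were 3 of 3 below the all-gene median, and 2 of 3 were lower under every scaling. Etf1 (eRF1), which recognises stop codons, was at 75.1 FPKM in WT and 64.9 in KO (-0.21). Its GTPase partner Gspt1 (eRF3a) was at 38.5 and 32.2 FPKM (-0.25). Abce1, the ATPase that splits ribosomes afterwards, was at 66.2 and 48.3 FPKM (-0.45).

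**Figure D4:**
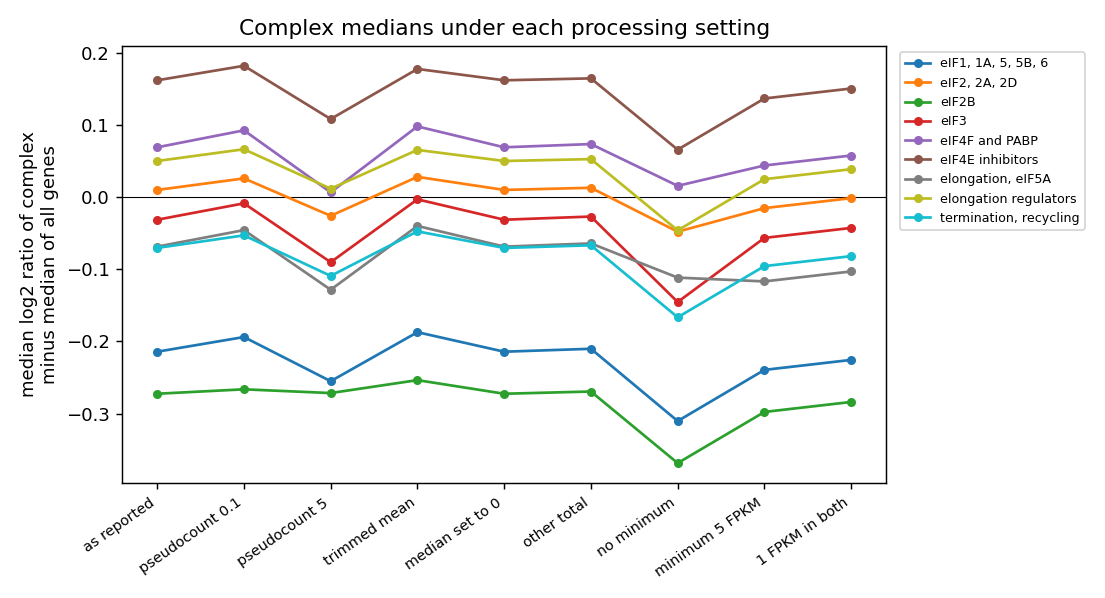
Median log2 ratio of each complex minus the all-gene median (y axis) under each processing setting (x axis, as reported first), with 1 colour per complex; the lines only join points of 1 complex. The eIF2B points lie lowest under every setting, between -0.37 and -0.25, and those of the eIF4E inhibitors highest, between 0.07 and 0.18. The scaling settings shift a complex and the all-gene median nearly alike, so their points could hardly move.

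Several of these factors belong to the mRNAs with a terminal oligopyrimidine (TOP) start, which mTORC1 regulates together with the ribosomal proteins at the level of translation. For 12 factors known as such (the 5 measured eEF1 genes Eef1a1, Eef1a2, Eef1b2, Eef1d and Eef1g, with Eef2, Eif3a, Eif3e, Eif3f, Eif3h, Eif4b and Pabpc1) the median log2 ratio was -0.12, and 9 of 12 lay above the all-gene median. Without Eef1a2, which met the minimum level only through the KO library, the median was -0.14, with 8 of 11 above. The 49 other factors had a median of -0.25, with 31 of 49 below it. Cytosolic ribosomal protein genes had a median of -0.38, and 79 of 80 lay below the all-gene median, from Rpl36 (-0.73), Rps27a (-0.63) and Rps23 (-0.61) to Rps7 (-0.20), Rpl4 (-0.19) and Fau (-0.12). Eef1d and Eef1g alone among the TOP factors were below that ribosomal median.

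Other genes of translation control, listed apart from the rule, were read in the same way. Of 45 symbols listed, 44 were in the files and 43 were measured, with a median log2 ratio of -0.11, 0 past 2-fold (2.44% of all genes higher and 2.18% lower), 3 at least 1.5-fold lower (11.4% of all genes) and 0 at least 1.5-fold higher (5.7%). These 3 were Dph2 (11.9 and 6.98 FPKM, -0.70), an enzyme of the diphthamide residue on eEF2, Paip2b (10.5 and 6.10 FPKM, -0.69), an inhibitor of poly(A)-binding protein, and Gcn1l1 (20.9 and 13.4 FPKM, -0.61), the activator of the eIF2 kinase GCN2. At the high end were Gfm2 (17.0 and 19.4 FPKM, 0.18), a mitochondrial recycling factor, the eIF2 kinase Eif2ak1 (17.6 and 19.5 FPKM, 0.14) and Mtor (9.33 and 9.72 FPKM, 0.05). The endoplasmic reticulum kinase Eif2ak3 was at 22.1 and 15.2 FPKM (-0.52), and Atf4, whose translation rises when eIF2B is inhibited, at 165 and 157 FPKM (-0.07).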

How the data were processed

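Per the file headers, the authors deposited FPKM, 1 table per library with a value for each gene to 2 decimals. Total RNA was sequenced as single-end reads of 50 bases on a BGISEQ-500, per the labels' protocols. HISAT, Bowtie2, RSEM and build mm9 are named, per the submitters' processing notes. Versions, roles, annotation and filters were not given in the sources used here. Since FPKM is relative to the library, abundant genes that differ shift all others, and reads of near-identical genes are shared out by estimation. The tables were joined on Entrez number, and groups follow the genotype label. Log2 ratios used a pseudocount of 1 over genes that reached 1 FPKM in either library, with calls at 2-fold and 1.5-fold. No test, error between cultures or p-value was possible with 1 library per genotype. Depth was taken from values of up to 5 reads in short non-coding genes: 88.4% (WT) and 87.3% (KO) lay within 0.1 read of a whole number after subtracting 36 bases from the length. At 2 times this depth the shares were 93.5% (WT) and 85% (KO), so the depth may be that much higher. The search for the best fit stopped short of 2 times this depth, so that depth could not have been chosen. The labels state a read number that is higher still, the same for both libraries. Which of these depths stands behind the FPKM values was not tested. The read numbers are therefore approximate, and at a higher depth the intervals given are on the wide side. Transcript lengths came from GENCODE M21. The log2 ratio, the 2-fold calls and the trimmed-mean scaling were tested on simulated data with large differences. Complex medians, depth, intervals and the sequence search were not tested in this way. All members can be named, at least the extremes of each complex; of other lists the 3 highest and lowest, with Eif2ak3 and Atf4 added after their values were seen. The members and lists were chosen with earlier results of these data known. Alternatives were other pseudocounts, scalings, minimum levels and thresholds. Python 3.11.15, numpy 2.4.6, pandas 2.3.3 and scipy 1.17.1 were used.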

Additional observations from a re-analysis of the deposited data

How the results depend on the processing

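The median of all genes moved from -0.18 to 0.03 with a trimmed mean of log ratios (30% and 5% trimmed), so the sign of a small log2 ratio depends on the scaling. The median over the translation factors became 0.027 with the trimmed mean and -0.031 with the median of all genes set to 0. Under both, 0 factors were at least 2-fold lower, 1 was at least 1.5-fold lower and 1 at least 1.5-fold higher (Eef1a2), and Eif2b3 was at -0.84 and -0.88. Eef1a2 met the minimum level only through the KO library, where it is higher, so its higher calls were favoured by that minimum. With a pseudocount of 0.1, Eef1a2 was at 1.13, so that 1 factor was past 2-fold and past 1.5-fold on the higher side, and 3 were at least 1.5-fold lower. With a pseudocount of 5, Eif2b3 was at -0.85 and 0 factors were 2-fold lower. At a threshold of 1.5-fold 2 factors were lower, and at 4-fold 0 were.

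Over all genes, the numbers at least 2-fold higher and lower were 295 and 263 as deposited, and 446 and 170 with the trimmed mean. The lower count was 604 with a pseudocount of 0.1, 160 with the median set to 0, 150 with a minimum of 5 FPKM and 165 with a minimum of 1 FPKM in both libraries. A pseudocount of 5 gave 144 and 63, the 1.5-fold threshold 689 and 1381, and the 4-fold threshold 51 and 27. Relative to all genes, the eIF3 median was -0.15 with no minimum level, and that of the translation control genes -0.035 with a minimum of 5 FPKM. The eIF2B median stayed between -0.37 and -0.25 relative to all genes in the 8 alternatives that give it. The scalings among these alternatives shift a complex and the all-gene median nearly alike, so they could hardly change it. With the median of all genes set to 0 it was -0.27, as deposited, by construction. Leaving out Eef1a2, chosen after seeing the data, gave 0.11 for the TOP factors minus the other factors and -0.09 for elongation relative to all genes, with no change of sign. No paired analysis was possible because each genotype has 1 library.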
